A study of Mus musculus with 14 samples.

Results

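Endothelial and blood vessel genes were followed through a mouse embryonic stem (ES) cell to motor neuron differentiation and in newborn tissues. The set was 10 genes chosen by symbol: *Kdr*, *Flt1*, *Tek*, *Tie1*, *Pecam1*, *Cdh5*, *Eng*, *Tal1*, *Lmo2* and *Etv2*. All 10 were found through their RefSeq identifiers among the 22850 gene symbols of the RNA-seq tables, each as a single locus. Levels are FPKM, the fragments mapped to a transcript divided by its length and by the mapped fragments of the library, so they can be set side by side between genes. The study compared *Taf9b* knock-out (KO) with wild type (WT) material on a C57BL/6 background to ask what the core promoter factor TAF9B does in neurons. Its 11 RNA-seq libraries were 1 each of ES cells labelled WT (JM8 clone) and labelled KO (Taf9b_BG10 clone), of embryoid bodies (EBs) made from both clones at day 2, 4 and 6, of newborn spinal column labelled WT and KO, and of newborn spinal cord labelled WT. The KO allele of *Taf9b*, an X-linked gene, lacks the protein-coding sequence and carries a reporter and selection cassette (*LacZ-Neo*) instead. Both ES lines were grown on mouse embryonic fibroblast feeder layers, and the EBs were exposed to retinoic acid and a Smoothened agonist. Each clone stood for its genotype alone, and the labels do not say how many animals went into a tissue library.

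Blood vessels are lined by endothelial cells, which arise in the embryo from mesoderm that expresses the VEGF receptor *Kdr*. The transcription factor ETV2 starts this program and then disappears, and TAL1 with its partner LMO2 acts in the shared precursors of endothelium and blood. Differentiated endothelium carries receptors for VEGF (KDR, FLT1) and for angiopoietins (TEK, with its relative TIE1), the junction proteins VE-cadherin (*Cdh5*) and PECAM1, and endoglin (*Eng*), a co-receptor for TGF-beta family ligands. *Pecam1* is also a known surface gene of mouse ES cells, and the spinal cord of a newborn is supplied with vessels.

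*Taf9b* itself was read first. Its level in the libraries labelled WT and KO was 0.537 and 3.06 FPKM in ES cells, 0.516 and 4.08 at day 2, 1.96 and 4.27 at day 4, and 1.37 and 4.01 at day 6. In spinal column it was 6.65 FPKM in the library labelled WT and 3.31 in that labelled KO, and spinal cord had 7.44. In the cultures the *Taf9b* level in FPKM was thus higher in every library labelled KO than in its partner, against the labels, and only the spinal column pair ran the other way. The study's methods state that the deletion in the KO clone was checked by DNA sequencing. By qRT-PCR and western blot, the study found *Taf9b* induction in differentiating WT cells only. The source of the *Taf9b* FPKM in the libraries labelled KO was not tested. At day 6 the library labelled WT had more neuron gene RNA than its partner, with sums of 834 and 109 FPKM, and less *Pou5f1*, an ES cell gene, with 198.0 and 543 FPKM. The libraries are therefore named by their labels throughout, and every direction drawn between them rests on those labels.

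With 1 library per condition there was no spread between replicates, and no difference below has a test or an error. A gene was counted as higher or lower when its 2 values differed by more than 2-fold and at least 1 of them was above 1 FPKM, and the counts of members are set beside the share of all genes that did the same. Tables were normalized by the authors in pairs, so levels from different tables are less comparable than the 2 columns of a table. The ES library labelled WT was listed in 2 tables, and its second listing was a median of 1.09 times the first over 11838 genes. The FPKM of all genes added up to between 411263 and 774507 per library. The read number behind a value was not given. Steps in the low values put the worth of 1 read in the library labelled WT at 0.79 times that in the library labelled KO for ES cells, 0.859 times for day 2 and 1.41 times for day 6, and gave no clear answer in the other tables. ES cell, fibroblast and neuron markers differed between libraries as well, and their values are given with most of the results.

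The promoters of 7 of the 10 genes are in the RefSeq promoter table (GRCm38.p6, 250 bases before to 50 after the start site), and those of *Pecam1*, *Cdh5* and *Lmo2* are not. Printed here are 4 that stand for the different courses of the genes: *Kdr* and *Tie1*, highest in tissues, *Flt1*, which was higher in the EB libraries labelled KO at day 4 and 6, and *Etv2*, measured in cultures only. Each sequence runs 5′ to 3′ on the strand of the gene, and capitals mark matches, on either strand, to the ETS factor core AGGAAG, to the E-box letters CAGATG or to the TATA box letters TATAAA.
*Kdr* chr5:75978406-75978705, minus strand: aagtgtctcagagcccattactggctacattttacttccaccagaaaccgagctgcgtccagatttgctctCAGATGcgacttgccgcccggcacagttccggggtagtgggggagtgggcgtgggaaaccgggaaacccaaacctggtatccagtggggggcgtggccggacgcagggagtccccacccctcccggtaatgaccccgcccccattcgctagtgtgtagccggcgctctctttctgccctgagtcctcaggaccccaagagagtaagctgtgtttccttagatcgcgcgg
*Tie1* chr4:118489800-118490099, minus strand: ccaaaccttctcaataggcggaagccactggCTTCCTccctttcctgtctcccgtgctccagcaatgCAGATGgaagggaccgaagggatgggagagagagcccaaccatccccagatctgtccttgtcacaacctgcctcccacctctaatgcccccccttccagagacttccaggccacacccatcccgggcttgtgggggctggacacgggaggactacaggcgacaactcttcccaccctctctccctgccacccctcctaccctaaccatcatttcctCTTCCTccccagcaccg
*Flt1* chr5:147725962-147726261, minus strand: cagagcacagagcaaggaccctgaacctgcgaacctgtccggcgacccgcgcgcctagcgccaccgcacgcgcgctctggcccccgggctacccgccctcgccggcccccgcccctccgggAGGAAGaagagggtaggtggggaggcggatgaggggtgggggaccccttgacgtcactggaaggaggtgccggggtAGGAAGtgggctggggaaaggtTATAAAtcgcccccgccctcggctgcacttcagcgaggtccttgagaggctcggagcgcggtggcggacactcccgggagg
*Etv2* chr7:30635803-30636102, minus strand: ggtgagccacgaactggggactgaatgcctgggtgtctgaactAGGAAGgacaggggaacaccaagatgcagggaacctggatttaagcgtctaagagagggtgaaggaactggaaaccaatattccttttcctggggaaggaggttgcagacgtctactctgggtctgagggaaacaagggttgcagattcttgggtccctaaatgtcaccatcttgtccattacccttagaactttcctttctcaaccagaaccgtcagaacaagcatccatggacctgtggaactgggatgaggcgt

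Both strands were searched for 6 motifs. The ETS motifs were CCGGAAG and a second, AGGAAG, which ends in the same letters but cannot match at the same place. The E-box motifs were CAGCTG, with CAGATG as the other. For GATA factors the motif was AGATAA, and for the TATA box it was TATAAA. Of the 7 genes, 4 held AGGAAG (*Flt1*, *Tie1*, *Eng* and *Etv2*), a motif found in 35.1% of all 32544 promoters of this length. CAGATG was present in *Kdr*, *Tie1*, *Eng* and *Tal1* and in 17.1% of all promoters. AGATAA was present in *Tek* and in 1 of the 2 *Tal1* promoters, and in 11.2% of all. Only *Flt1* of the 7 had TATAAA, which began 31 bases before its start site, and 13.6% of all promoters had it. CCGGAAG (8.91% of all) and CAGCTG (16.4% of all) were in none of them. In *Flt1*, the AGGAAG matches began 129 and 53 bases before the start site. In *Tie1* they lay on the opposite strand, 1 upstream and 1 downstream of the start. These matches describe the letters in a short window.

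Most of the vessel genes had their highest levels in newborn tissues. In all 3 tissue libraries 9 of the 10 genes were above 1 FPKM, against 2 to 5 of the 10 in each of the 8 culture libraries. Over all 22850 genes, 13040 to 13583 were above 1 FPKM in a tissue library and 11647 to 12348 in a culture library. For 6 genes, *Kdr*, *Tek*, *Tie1*, *Cdh5*, *Tal1* and *Lmo2*, the lowest tissue library was above the highest culture library, which held for 19.1% of the 15892 genes above 1 FPKM in at least 1 library. In a bulk library, fewer cells of a type and less RNA per cell cannot be told apart. *Tal1* and *Lmo2* are also genes of blood cells, and the sum of 7 erythroid genes was 1.43 to 2.32 FPKM in the cultures, 41.0 and 61.9 in spinal column labelled WT and KO and 17.8 in spinal cord. *Alas2* and *Ank1* made up most of the tissue sums, and *Epor* was lower in spinal column labelled WT (0.586) and spinal cord (0.342) than in any culture. The part of blood cells was not tested.

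**Figure D1:**
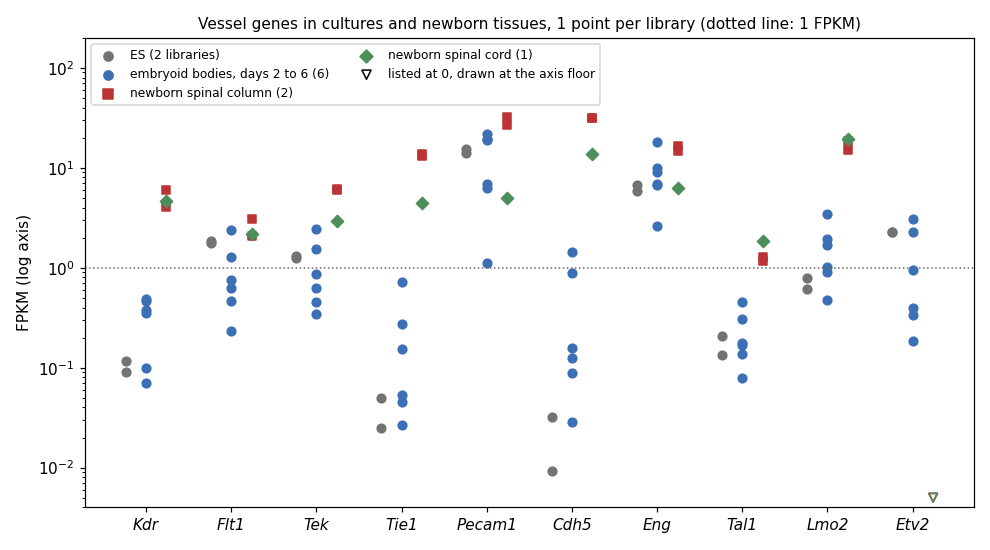
FPKM (log axis) of each gene, 1 point per library, for ES cells, EBs, spinal column and spinal cord; the dotted line is 1 FPKM and open triangles are libraries listed at 0. *Cdh5*, *Tie1* and *Kdr* show a wide gap between cultures and tissues, whereas the points of *Pecam1*, *Eng* and *Flt1* overlap, and *Etv2* is listed at 0 in all 3 tissue libraries.

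*Cdh5* (mm9 chromosome 8, 106625525 to 106668402), whose product holds endothelial cells together at their junctions, separated the groups most. It was 0.0324 and 0.00916 FPKM in the ES libraries labelled WT and KO, 0.0287 and 0.0892 at day 2, 0.125 and 0.882 at day 4, and 0.159 and 1.44 at day 6. Spinal column had 31.39 and 31.41 FPKM and spinal cord 13.8. The lowest tissue value was 9.59 times the highest culture value, and the only culture library above 1 FPKM was day 6 labelled KO.

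*Tie1* (mm9 chromosome 4, 118143796 to 118162454), an orphan receptor that forms complexes with TEK, was at most 0.712 FPKM in culture, again in the day 6 library labelled KO. The ES libraries had 0.025 and 0.0496 FPKM, and day 6 labelled WT had 0.271. In spinal column its level was 13.6 FPKM labelled WT and 13.2 labelled KO, and spinal cord had 4.40. *Kdr* (mm9 chromosome 5, 76329299 to 76374453), the main signalling receptor for VEGF, stayed between 0.0699 and 0.487 FPKM in the cultures. The 2 ES and 2 day 2 libraries were the 4 lowest for *Kdr*, the 4 libraries of day 4 and 6 lay between 0.356 and 0.487, and the libraries labelled KO had less of it than their partners at every stage, by log2 ratios of -0.37 to -0.55 with spinal column included. Its tissue levels were 5.99 and 4.09 FPKM in spinal column labelled WT and KO and 4.62 in spinal cord.

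*Tek* (mm9 chromosome 4, 94405991 to 94541630), the receptor for angiopoietins, was expressed at a low level in ES cells, with 1.25 and 1.30 FPKM labelled WT and KO. At day 2 it was 1.53 and 2.45 FPKM, at day 4 0.343 and 0.86, and at day 6 0.453 and 0.628. The 2 spinal column libraries had 6.09 and 5.96 FPKM and spinal cord 2.93, so that the gap between the lowest tissue and the highest culture library was 1.20-fold. *Flt1* (mm9 chromosome 5, 148373772 to 148537564), a VEGF receptor that also acts as a decoy for the ligand, had 1.78 and 1.84 FPKM in ES cells, 0.754 and 0.462 at day 2, 0.634 and 2.38 at day 4, and 0.23 and 1.27 at day 6. Tissue levels of *Flt1* were 3.06, 2.06 and 2.15 FPKM, and day 4 labelled KO was above 2 of the 3 of these.

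Among the transcriptional regulators, *Lmo2* (mm9 chromosome 2, 103798152 to 103822035) ran from 0.472 to 3.49 FPKM in cultures and from 15.0 to 19.4 in tissues, with the highest value in spinal cord. *Tal1* (mm9 chromosome 4, 114732132 to 114744360) was at most 0.449 FPKM in the cultures. It had 1.17 and 1.28 FPKM in spinal column labelled WT and KO and 1.86 in spinal cord. *Etv2* (mm9 chromosome 7, 31418635 to 31420871), the early activator of the endothelial program, took the reverse course. Its level was 2.26 and 2.27 FPKM in the ES libraries, 3.05 and 2.27 at day 2, 0.399 and 0.339 at day 4, and 0.185 and 0.946 at day 6, and it was listed at 0 in all 3 tissue libraries. An exact 0 in these tables can be a failed estimate, since *Gapdh* was listed at 0 in spinal column labelled KO.

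*Pecam1* and *Eng* were present throughout. *Pecam1* (mm9 chromosome 11, 106515532 to 106576595), an adhesion molecule of endothelial junctions, was the highest of the 10 genes in ES cells, with 15.4 and 14.0 FPKM, and at day 2, with 19.1 and 21.6. In the day 4 libraries labelled WT and KO it had 1.13 and 6.81 FPKM, and at day 6 6.25 and 19.4. Spinal column had 26.8 and 32.5 FPKM, but spinal cord had 5.03, less than 7 of the 8 culture libraries. *Pou5f1*, which marks undifferentiated ES cells, was likewise lowest of the cultures at day 4 labelled WT, but the genes did not rank the libraries alike. *Pou5f1* had 859, 880, 829 and 987 FPKM in the ES and day 2 libraries, 19.9 and 99.1 at day 4 and 198.0 and 543 at day 6. At day 6 labelled KO, *Pecam1* was above both ES libraries and *Pou5f1* below them. *Pou5f1* was listed at 0 in the 3 tissue libraries, where *Pecam1* was 5.03 FPKM or more. *Eng* was 6.79 and 5.81 FPKM in ES cells, 6.84 and 9.01 at day 2, 2.61 and 9.84 at day 4 and 6.68 and 18.2 at day 6. In spinal column it was 16.5 and 14.7 FPKM and in spinal cord 6.27. The value of *Eng* is less certain than the others, because the table places it in 1 locus with *Fpgs*, a gene of folate metabolism on the opposite strand (mm9 chromosome 2, 32502115 to 32549695), and strand-specific counting was not stated. *Fpgs* had 16.8 and 18.5 FPKM at day 4 and 15.3 and 23.1 at day 6.

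**Figure D2:**
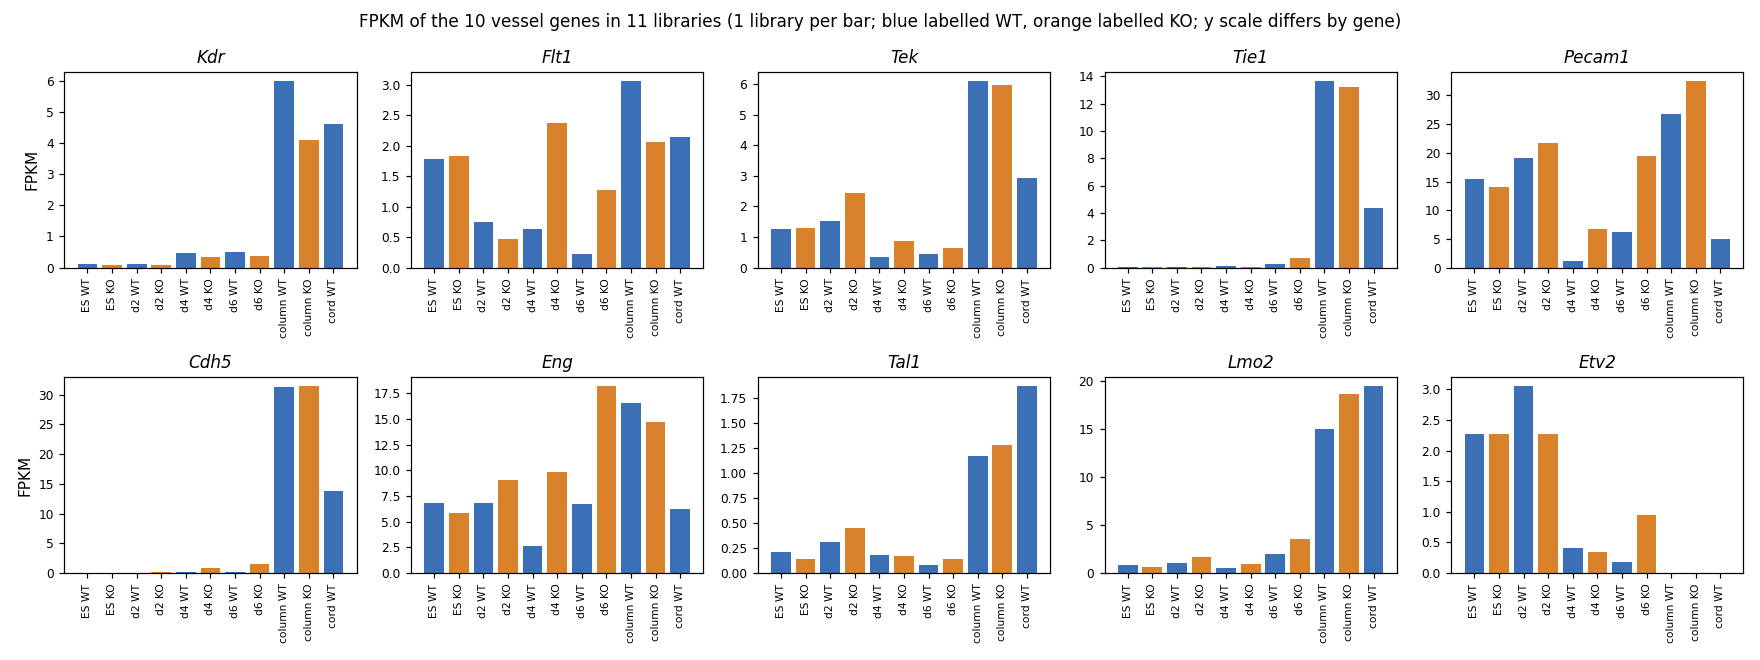
FPKM of each of the 10 genes in the 11 libraries, 1 bar per library with no error bar, blue for labelled WT and orange for labelled KO; each panel has its own scale from 0. *Pecam1*, *Eng* and *Etv2* have tall bars among the cultures, and *Tie1*, *Cdh5*, *Kdr*, *Tal1* and *Lmo2* have theirs in the tissues.

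Along differentiation, the members did not share a course. Between day 6 and ES cells labelled WT, 6 members were above 1 FPKM in either library. *Lmo2* was higher by a log2 ratio of 1.29, as 23% of all genes were past 2-fold higher, but by 0.89, inside 2-fold, when the libraries were rescaled to the same sum of FPKM. Another 4 were lower, where 15.1% of all genes were: *Etv2* by -3.61, *Flt1* by -2.95, *Tek* by -1.47 and *Pecam1* by -1.30. *Cdh5*, *Tie1* and *Kdr* had ratios of 2.29, 3.44 and 2.05 but never passed 1 FPKM. In the libraries labelled KO, *Cdh5* (7.30), *Lmo2* (2.51) and *Eng* (1.64) were higher at day 6 than in ES cells, beside 16.8% of all genes. The size of the *Cdh5* ratio rests on a very low value in ES cells, 0.00916 FPKM, beside 1.44 at day 6. *Tek* (-1.05) and *Etv2* (-1.26) were lower, beside 9.59%. Neither of these lower calls held with 1 FPKM added to both values, and *Tek* also came inside 2-fold with 0.1 FPKM added. *Pecam1* had a ratio of 0.46 there. The median over the members above 1 FPKM was -1.38 labelled WT and 0.46 labelled KO, over all 10 members it was -0.66 and 1.05, and over all genes above 1 FPKM it was 0.20 and 0.15. From ES cells to day 6 the ES cell genes went from a sum of 1829 to 360 FPKM labelled WT and from 1832 to 1000.2 labelled KO. The fibroblast and feeder genes went from 375 to 56.0 and from 409 to 139, and the neuron genes from 168 to 834 and from 158 to 109. Their part in the member ratios was not tested.

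*Pecam1*, *Eng*, *Lmo2* and *Tek* had their lowest value of the cultures labelled WT at day 4, and *Flt1*, *Etv2* and *Tal1* had theirs at day 6. All 5 members above 1 FPKM in either of the day 2 and day 4 libraries labelled WT were lower at day 4, beside 13.7% of all genes. The largest of these ratios belonged to *Pecam1*, -4.09, and the smallest to *Lmo2*, -1.11, which rescaling these separately normalized tables to the same sum put at -0.98, inside 2-fold. *Kdr* (2.22), *Cdh5* (2.12) and *Tie1* (1.76) had larger values at day 4 than at day 2, all under 1 FPKM. Over this step the sum of the ES cell genes went from 1185 to 30.5 FPKM. That of the fibroblast and feeder genes went from 67.6 to 5.68, and that of the neuron genes from 94.5 to 31.1. From day 4 to day 6 labelled WT, *Pecam1* (2.47), *Lmo2* (2.04) and *Eng* (1.36) were higher, beside 17% of all genes, while *Flt1* (-1.46), *Tal1* (-1.16) and *Etv2* (-1.11) had smaller values, all under 1 FPKM. Here the ES cell genes went from 30.5 to 360 FPKM, the fibroblast and feeder genes from 5.68 to 56.0 and the neuron genes from 31.1 to 834. In the libraries labelled KO, *Flt1* was higher at day 4 than at day 2 by 2.36 (15.4% of all genes were higher), while *Etv2*, *Pecam1* and *Tek* were lower by -2.75, -1.67 and -1.51 (7.71% of all genes). There the ES cell genes went from 1287 to 189 FPKM, the fibroblast and feeder genes from 70.8 to 35.6 and the neuron genes from 89.3 to 38.3. The part of these lists in the steps of the members was not tested.

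In ES cells no member differed by more than 2-fold between the labels, and 1.06% of all 11991 genes did. The 5 members above 1 FPKM had ratios of labelled KO over labelled WT between -0.22 (*Eng*) and 0.05 (*Tek*). At day 2 again none did, beside 2.51% of all genes. The ratios of the 5 members above 1 FPKM ran from -0.42 for *Etv2* to 0.73 for *Lmo2*.

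At day 4, 3 members were above 1 FPKM in either library, and all 3 were higher in the library labelled KO: *Pecam1* by a log2 ratio of 2.60, *Eng* by 1.92 and *Flt1* by 1.91. Of all 12510 genes 12.1% were higher and 4.38% lower, and among genes whose larger value was between 1 and 10 FPKM 19.9% were higher. *Cdh5* (2.82), *Tek* (1.33) and *Lmo2* (0.94) also had larger values labelled KO, and *Tie1* (-1.54), *Kdr* (-0.39), *Etv2* (-0.24) and *Tal1* (-0.07) smaller ones, all at or under 1 FPKM in both libraries. All 6 ES cell genes, *Pou5f1*, *Nanog*, *Klf4*, *Esrrb*, *Zfp42* and *Tdgf1*, were higher labelled KO, with their sum 30.5 FPKM labelled WT and 189 labelled KO. So were all 8 fibroblast and feeder genes, with sums of 5.68 and 35.6 FPKM. The part of these cells in the vessel gene ratios was not tested.

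By day 6, 4 of the 5 members above 1 FPKM were higher in the library labelled KO: *Cdh5* by 3.19, *Flt1* by 2.47, *Pecam1* by 1.63 and *Eng* by 1.44. *Lmo2*, at 1.94 and 3.49 FPKM, was just inside 2-fold with 0.85. Of all 12945 genes 10.5% were higher and 9.9% lower, and 14.5% of genes with a larger value between 1 and 10 FPKM were higher, so that over all genes the directions were nearly even. *Etv2* with a ratio of 2.35 missed the FPKM limit narrowly, and *Tie1* (1.39), *Tal1* (0.79) and *Tek* (0.47) also leaned to the library labelled KO, leaving *Kdr* (-0.38) as the only member lower there. The median over the 5 members was 1.63, beside 0.00 over all genes. ES cell genes summed to 360 FPKM labelled WT and 1000.2 labelled KO, with 5 of 6 past 2-fold. Fibroblast and feeder genes summed to 56.0 and 139 FPKM, with 4 of 8 past 2-fold. All 8 neuron genes were lower labelled KO, from a sum of 834 to 109 FPKM, and the part of any of these in the vessel gene ratios was not tested.

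**Figure D3:**
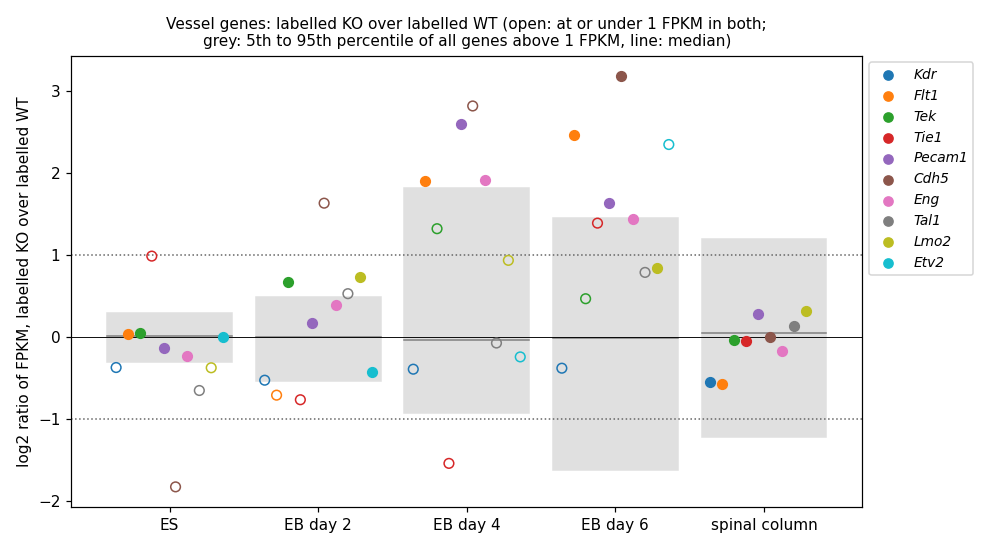
Log2 ratio of FPKM, labelled KO over labelled WT, for each gene at each stage, filled where the gene was above 1 FPKM in at least 1 library and open where it was not; grey boxes span the 5th to 95th percentile of all genes above 1 FPKM, with their median as a line, and dotted lines are 2-fold. At day 6 *Cdh5*, *Flt1*, *Pecam1* and, as an open point, *Etv2* lie above the box, and in spinal column the 9 ratios lie inside the dotted lines.

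Spinal column showed no member past 2-fold between the labels, beside 17.5% of all 14197 genes. The 9 members above 1 FPKM had ratios between -0.57 (*Flt1*) and 0.32 (*Lmo2*), with a median of -0.03 against 0.05 for all genes. *Cdh5* was 31.39 and 31.41 FPKM, *Tie1* 13.6 and 13.2, and *Tek* 6.09 and 5.96. The 2 VEGF receptors *Kdr* (-0.55) and *Flt1* were the lowest of the 9. When each library was rescaled to the same sum of FPKM, the median of all genes moved to -0.50, and *Kdr* (-1.10) and *Flt1* (-1.12) were then past 2-fold lower. Macrophage genes summed to 187 FPKM labelled WT and 354 labelled KO, led by *Tyrobp* with 66.1 and 159, and neuron genes to 679 and 438.

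Spinal cord against ES cells labelled WT, listed side by side in 1 table, had 6 members higher: *Cdh5* by a log2 ratio of 8.61, *Tie1* by 7.34, *Kdr* by 5.17, *Lmo2* by 4.49, *Tal1* by 3.03 and *Tek* by 1.10. The share of all 14322 genes past 2-fold higher was 30.4%, and that lower 35.8%. Lower were *Pecam1* (-1.74) and *Etv2*, which had 2.47 FPKM in ES cells and was listed at 0 in spinal cord. *Flt1* (0.15) and *Eng* (-0.24) were within 2-fold. The neuron genes summed to 183 FPKM in ES cells and 1462 in cord, and the ES cell genes to 1993 and 9.36. Macrophage genes had sums of 1.31 and 85.9 FPKM, and fibroblast and feeder genes 409 and 390. The part of these lists in the member ratios was not tested.

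Spinal column labelled WT exceeded spinal cord labelled WT in 5 of 9 members, beside 17.3% of all genes: *Pecam1* by 2.41, *Tie1* by 1.63, *Eng* by 1.40, *Cdh5* by 1.18 and *Tek* by 1.06. *Tal1* (-0.67) and *Lmo2* (-0.37) leaned to the cord. These libraries were normalized in separate tables, and after rescaling to the same sum *Cdh5* (0.84) and *Tek* (0.72) were inside 2-fold and *Tal1* (-1.01) was past 2-fold lower in the column. The column contains bone, muscle and connective tissue besides neural tissue, and fibroblast genes such as *Col1a1* were at 1423 FPKM in it and 68.9 in the cord.

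The genes that belong to the same pathways were followed by lists. The VEGF genes *Vegfa*, *Vegfb* and *Vegfc* were above 1 FPKM in all 11 libraries, whereas the angiopoietin genes *Angpt1* and *Angpt2* were above it in all 3 tissue libraries and each in 1 of the 8 culture libraries. *Vegfb*, the highest of 8 VEGF, angiopoietin and apelin genes in all 11 libraries, ran from 27.7 FPKM in ES cells labelled WT to 90.0 at day 4 labelled WT, and *Vegfa*, the principal ligand of KDR, from 4.71 in spinal cord to 22.3 at day 6 labelled KO. At day 6, labelled KO was past 2-fold below labelled WT for 2 of the 8 ligand genes, beside 9.9% of all genes, and above it for none, beside 10.5%: *Angpt1*, which activates TEK, with 2.97 FPKM labelled WT and 0.447 labelled KO, and *Apln* with 1.03 and 0.238. None of the 8 was past 2-fold in spinal column, where 17.5% of all genes were. Of the 8 co-receptors and other endothelial receptors above 1 FPKM, among 10 listed, 2 were higher and 3 lower labelled KO at day 6, beside the same 10.5% and 9.9% of all genes, led by the Notch ligand *Dll4* with a log2 ratio of -3.27 and the endothelial receptor *Robo4* with 3.18. The neuron genes (834 and 109 FPKM labelled WT and KO), the ES cell genes (360 and 1000.2) and the fibroblast and feeder genes (56.0 and 139) differed between the same day 6 libraries, and their part in these list counts was not tested.

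Endothelial transcription factors leaned to the libraries labelled KO at both late stages. At day 4, 6 of the 9 above 1 FPKM were higher and none lower, beside 12.1% and 4.38% of all genes, with a median of 1.38, led by *Klf2* (3.42), *Gata2* (3.24) and *Ets1* (1.62). At day 6, 5 of 9 were higher and 1 lower, beside 10.5% and 9.9% of all genes, with a median of 1.11, led by *Epas1* (2.19), with *Nr2f2* at -1.88 the lower. The ES cell genes went from 30.5 to 189 FPKM at day 4 and from 360 to 1000.2 at day 6 between the same libraries, and the fibroblast and feeder genes from 5.68 to 35.6 and from 56.0 to 139, and their part was not tested. *Klf2*, a gene induced by blood flow in endothelium that ES cells also express, had 70.8 FPKM in ES cells labelled WT, and *Erg* and *Fli1*, which are more restricted to endothelium and blood, were at most 0.47 FPKM in every culture library. In spinal column none of the 12 was past 2-fold, beside 17.5% of all genes.

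Endothelial junction and surface genes were more often above 1 FPKM in tissues than in cultures, with 17, 17 and 16 of 17 above 1 FPKM in the 3 tissue libraries and 5 to 7 in the cultures, beside the 13040 to 13583 and 11647 to 12348 of all genes. In spinal cord against ES cells 13 of the 16 above 1 FPKM were higher, beside 30.4% of all genes, and 1, *Mcam*, was lower, beside 35.8%. The median log2 ratio was 3.40, and *Emcn* (9.19), *Cldn5* (7.68) and *Adgrl4* (6.15) led the list. In spinal column the library labelled KO differed from its partner past 2-fold in 1 of 17, beside 17.5% of all genes. It was *Vwf*, the gene of von Willebrand factor, with 6.28 FPKM labelled WT and 2.04 labelled KO. At day 6 the 2 of 7 that were higher labelled KO, beside 10.5% of all genes, were *Esam* (2.29) and *Rasip1* (1.40), between libraries that also differed in neuron (834 and 109 FPKM), ES cell (360 and 1000.2) and fibroblast genes (56.0 and 139), whose part was not tested.

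Some genes of the blood-brain barrier were higher in cord than in column. *Mfsd2a* had 24.6 FPKM in cord and 11.3 in column labelled WT, *Slco1c1* 6.96 and 2.19, and *Slc38a5* 4.47 and 1.01. Past 2-fold, 3 of 7 were thus lower in the column, beside 16% of all genes, and none higher. Inside 2-fold the list was split. *Slc16a1* (5.16 FPKM in cord and 9.92 in column labelled WT) and *Abcg2* (10.2 and 15.99) leaned to the column, and *Abcb1a* and *Slc2a1* to the cord. In the column labelled KO 3 of 7 were lower than in its partner, *Mfsd2a* by -1.26, *Slco1c1* by -1.24 and *Abcb1a* by -1.02, beside 8.58% of all genes. There *Slc16a1* (11.6 FPKM) and *Abcg2* (16.16) were slightly above their partner values, and *Slc2a1* and *Slc38a5* were lower inside 2-fold. The sum of the neuron genes was also lower, with 1462 FPKM in cord, 679 in column labelled WT and 438 in column labelled KO. In the column labelled WT 5 of 8 neuron genes were past 2-fold lower than in cord and 1, *Isl1*, higher, and in the column labelled KO 2 of 6 were lower than in its partner. Their part in the barrier gene ratios was not tested. The glucose transporter *Slc2a1* was highest of the list in all libraries but spinal column labelled KO and is used by many cell types, with 681 FPKM at day 4 labelled WT.

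Among other cells of vessels and blood, macrophage genes were a tissue signal too, whereas blood progenitor, pericyte and smooth muscle genes were mixed. Not one of 7 macrophage genes was above 1 FPKM in a culture library, and all 7 were in each tissue library. Of 12 blood progenitor factors 2 or 3 passed 1 FPKM in each culture library and 4 to 8 in each tissue library, where more of all genes passed it too. Their sums overlapped, with 57.4 to 91.7 FPKM in cultures and 53.4 to 64.3 in tissues. *Myb* was highest at day 2, with 13.2 and 11.2 FPKM labelled WT and KO, and had 0.226 to 0.907 in tissues. Pericyte and smooth muscle genes were split: *Acta2* was at 153 and 170 FPKM in the ES libraries, which were grown on feeders, and at 0.582 and 0.433 at day 2, whereas *Kcnj8* and *Abcc9* stayed at or under 0.297 FPKM in all cultures. The part of feeder cells in the ES values was not tested. The list summed to 339 and 353 FPKM in ES cells, 226 and 322 in spinal column and 50.1 in spinal cord. At day 6, 5 of the 6 pericyte and smooth muscle genes above 1 FPKM were higher labelled KO, beside 10.5% of all genes, led by *Tagln* with 5.44 and 23.3 FPKM. The fibroblast and feeder genes had sums of 56.0 and 139 FPKM in these libraries and the ES cell genes 360 and 1000.2, and their part was not tested. Among the 5 of 8 mesoderm precursor genes above 1 FPKM, 3 were higher and 1 lower there, beside 10.5% and 9.9% of all genes. *Hand1* had 1.82 FPKM labelled WT and 14.5 labelled KO, and *Foxf1*, the lower, 3.63 and 1.65. *Hand1* was also higher labelled KO in ES cells (1.09 and 2.39 FPKM) and at day 2 (0.272 and 1.59). The part of the ES cell, fibroblast and feeder genes in this list was not tested either.

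**Figure D4:**
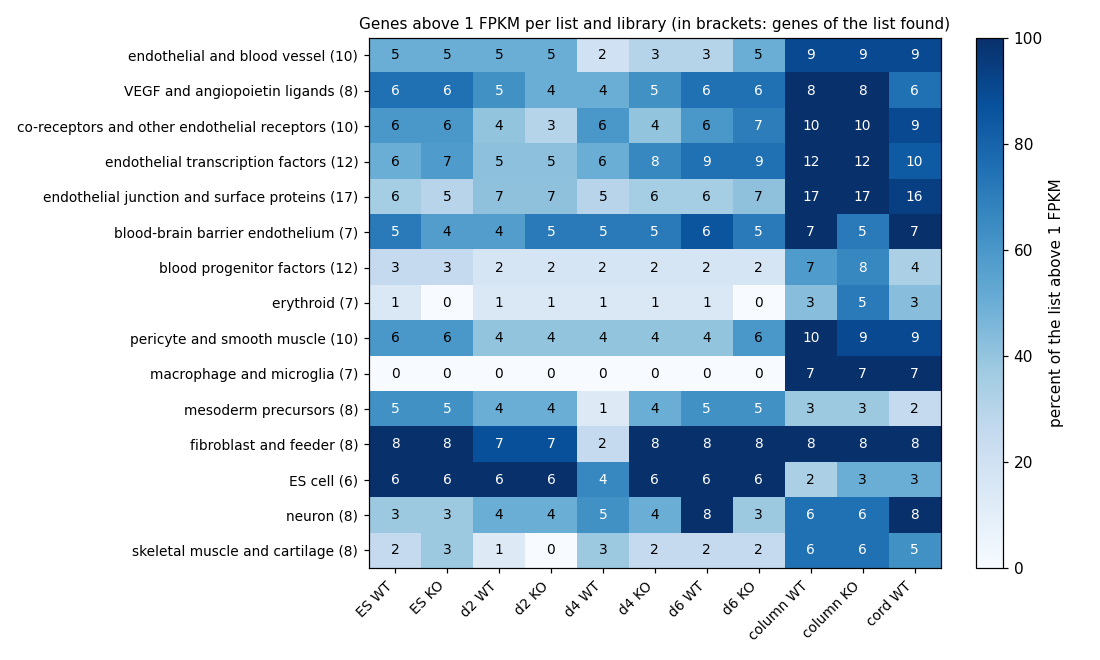
Number of genes above 1 FPKM in each list (rows, genes found in brackets) and library (columns), shaded by their percent of the list. The junction and surface, macrophage and blood progenitor lists are darkest in the 3 tissue columns, and the ES cell and fibroblast lists are lighter at day 4 labelled WT than in the other culture libraries.

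The genes whose pattern was most like the mean of the 10 members over the 11 libraries were *Nfic*, *C130074G19Rik*, *Mmp28*, *Herc3*, *C1qtnf1*, *Rab12*, *Pamr1*, *Gbgt1*, *Ccl11* and *Emp2*, with Pearson r of 0.954 to 0.984 on log2(FPKM + 1). Over the 8 culture libraries they were *Mafk*, *Zbtb21*, *Pdlim2*, *Trim54*, *Npepl1*, *Lrrn4cl*, *Tprn*, *Tmppe*, *Pkp3* and *Csrnp1*, with r of 0.957 to 0.982. No gene was in both sets. The points share clones, tables and the split of cultures from tissues, so r is a description. Members differed in how well the mean stood for them: over 11 libraries r was 0.935 for *Tek* and -0.42 for *Etv2*, and over the cultures 0.951 for *Eng* and -0.27 for *Kdr*. Within the cultures *Kdr* and *Etv2* had r of -0.95 with each other.

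Peaks from chromatin immunoprecipitation of motor neuron EBs (HBG3 clone, labelled wild type, 1 library per antibody) were placed on the members. No TAF9B and no RNA polymerase II peak midpoint was within 500 bp of a coding start site of any of the 10 genes, nor within 5 kb. The genes above 1 FPKM in at least 1 of the day 6 libraries labelled WT and KO numbered 11044. Of these, 30.3% had a TAF9B peak and 53.6% a polymerase peak within 500 bp, and 38.1% and 58.6% had one within 5 kb. Only 5 members belonged to those genes: *Pecam1*, *Eng* and *Lmo2*, and through the library labelled KO alone *Flt1* and *Cdh5*. *Etv2* had the nearest TAF9B peak, 13.8 kb from its start site, with a score of 62.9. Next was *Eng* with 16.3 kb, and that peak (mm9 chromosome 2, 32545053 to 32545222) lay in the stretch of the locus that belongs to *Fpgs*. *Tal1* was farthest, with 678 kb. The nearest polymerase peaks were 9.60 kb from *Eng* and 13.8 kb from *Etv2*. The cells that were precipitated came from another clone than those sequenced and, by the study's methods, from EBs differentiated for longer than the day 6 libraries.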

How the data were processed

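RNA-seq was poly-A, with 1 library per condition, and ChIP-seq used TAF9B, RNA polymerase II and IgG antibodies. The FPKM values were made by the authors with TopHat against RefSeq genes and Cuffdiff (mm9), 2 libraries per table, and were used as deposited. The deposited peak score comes from MACS after mapping with Bowtie to mm9. Versions are not given in the sources used here. The tables also hold the authors' log2 fold changes, test statistics and p-values from single libraries, which were not used. The IgG library was not analysed here.

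A symbol was found for 22834 of 23152 loci through RefSeq accessions, and loci of a symbol were summed. The members and lists were chosen with earlier results of these data known. Log2 ratios had no pseudocount. No test was made, since each condition has 1 library, and the precision of single values is unknown because depth was not given. The worth of 1 read was taken from the commonest ratio among low values. Likeness of pattern used log2(FPKM + 1). Named were all members, *Taf9b*, and from each list up to 3 genes with the largest ratios and the highest gene; *Fpgs*, *Pou5f1* at all stages, *Gapdh*, *Erg*, *Fli1*, *Vegfa* and some other list genes were named after their values were seen. The 2-fold count was tested on simulated data, but not for the steps between successive culture stages. Python 3.11.15, numpy 2.4.6, pandas 2.3.3 and matplotlib 3.10.9 were used. Alternatives were other pseudocounts, filters, folds and scalings, and for the peaks another distance and score.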

Additional observations from a re-analysis of the deposited data

Results flagged for a closer look

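Among members above 1 FPKM in at least 1 library at both stages, 3 had ratios of labelled KO over labelled WT in opposite directions that were more than 4-fold apart. The log2 ratio of *Flt1* was 1.91 at day 4 and 2.47 at day 6 and -0.57 in spinal column, differences of 2.48 and 3.04. For *Pecam1* it was -0.13 in ES cells and 2.60 at day 4, a difference of -2.73 for ES cells minus day 4. For *Eng* it was -0.22 in ES cells and 1.92 at day 4, a difference of -2.14 for ES cells minus day 4, and -0.17 in spinal column, a difference of 2.08 for day 4 minus spinal column. With 1 library per condition the difference between stages was not tested.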

How the results depend on the processing

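No paired analysis was possible because the labels carry no replicate numbers and each stage has 1 library per label, so that pairing by stage would treat the stages as replicates of 1 condition. No library could be left out within a condition. The limits are the single libraries, the unknown depth and the separate normalization of tables, and the cause of the shifts below was not tested except where fewer or more genes enter. With no filter on low values, counts of members past 2-fold became 1 lower in ES cells, 1 higher at day 2, 5 higher and 1 lower at day 4 (median 1.13), 4 higher for day 6 against ES labelled WT (median -0.66) and 5 higher labelled KO (median 1.05). Requiring 1 FPKM in both libraries left fewer genes: 2 higher at day 6, 1 higher and 1 lower in spinal cord against ES cells, where the median turned to -0.046, 0 higher and 1 lower for day 6 against ES labelled WT (median -0.66), and 1 higher and 0 lower labelled KO. With 1 FPKM added to both values, the spinal cord median was 0.98, and 0 members were higher labelled WT and 0 lower labelled KO for day 6 against ES, where 0.1 FPKM added left 1 lower labelled KO. Rescaling to equal sums gave 2 lower in spinal column labelled KO, a spinal cord median of 2.70, 0 higher for day 6 against ES labelled WT, and 3 higher and 1 lower for column against cord. That scaling moved the median of all genes to 0.37 for cord against ES cells and to -0.41 for column against cord. At 1.5-fold, 2 were higher at day 2 labelled KO and 1 lower in column against cord. At 4-fold, 1 was higher at day 4, 2 higher at day 6, 1 lower in cord against ES cells, 0 higher and 2 lower for day 6 against ES labelled WT, 0 lower labelled KO and 1 higher in column against cord. Between day 2 and day 4 labelled WT, rescaling left 4 of 5 members past 2-fold lower. The other values, 198 of 234, stayed within 1.5-fold, among them both peak counts and, chosen after seeing the data, the count of members above all cultures in all tissues without the 2 ES libraries and after rescaling.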
